A study of Mus musculus with 12 samples.

Results

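The Kupffer cell identity genes described here are the 9 genes Clec4f, Timd4, Vsig4, Cd5l, Marco, Cd163, Fcna, Adgre1 and Csf1r, taken by symbol from the 40551 genes of the count tables, and all 9 had counts in all 12 libraries and passed the filter on low counts. The libraries are total RNA-seq of 12 mouse livers, with 3 livers in each of 4 genotypes. WT livers carry neither deletion. Mcl1 KO livers lack Mcl1, an antiapoptotic BCL-2 family gene, in hepatocytes through a Cre driven by the albumin promoter, so that macrophages keep their Mcl1 gene. Sting1 KO livers lack Sting1, the adaptor of the cGAS-STING DNA-sensing pathway, in all cells of the mouse, and Mcl1 Sting1 DKO livers (DKO below) carry both deletions. Mice of both sexes were used. The labels give no ages, and the study used mice of 2 and 12 months, with its text placing the Mcl1 KO livers at 2 months. The question put to the genes was whether loss of Mcl1 in hepatocytes changed their RNA in the liver, and whether that change differed without Sting1.

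Kupffer cells are the resident macrophages of the liver. They line the sinusoids, where they clear bacteria, aged red cells, lipoproteins and cell debris from the blood. Their identity genes are set up by signals from neighbouring endothelial cells, stellate cells and hepatocytes and by transcription factors such as LXRα (Nr1h3) and ID3, and when resident cells are lost, monocytes from the blood can fill the niche and switch these genes on at different speeds, Timd4 among the latest. The 9 genes fall into a lectin and uptake group (Clec4f, Timd4, Vsig4), secreted proteins (Cd5l, Fcna), scavenger receptors (Marco, Cd163) and genes shared by macrophages of many tissues (Adgre1, Csf1r). In a whole liver, fewer cells of a type and less RNA per cell cannot be told apart.

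Each library held 28826367 to 45266387 counts on genes. Mcl1 checked the genotype labels: its level was 98.5 ± 7.35 CPM (counts scaled to library size) in WT, 81.6 ± 7.19 in Sting1 KO, 28.9 ± 4.57 in Mcl1 KO and 22.3 ± 3.95 in DKO livers (mean ± SD, n = 3 here and below). Sting1 RNA did not separate the livers labelled Sting1 KO from WT. It was 2.53, 2.43 and 2.11 CPM in WT and 1.16, 1.72 and 2.70 CPM in the libraries labelled Sting1 KO, which overlapped. It was 3.66 to 5.99 CPM in Mcl1 KO and 1.90 to 2.53 CPM in the libraries labelled DKO. Gene-level counts do not show whether a deletion removed part of a transcript, so every direction drawn below from a Sting1 genotype rests on the label. Summed RNA of Y-linked genes was at 142 to 147 CPM in WT replicates 2 and 3 and in DKO replicate 1 and at most 0.201 CPM in the 9 other libraries. By this RNA, those 3 livers were male and no Mcl1 KO or Sting1 KO liver was. Sex was therefore not balanced over the genotypes, and its part in the comparisons cannot be fully told apart from genotype. Small structured RNAs took 0.192% to 0.981% of the counts in 10 libraries, 2.78% in Mcl1 KO replicate 2 and 1.55% in Mcl1 KO replicate 3.

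On the TPM scale, which divides counts by exon length so that genes can be compared, Cd5l was the highest of the 9 in WT livers at 276 ± 64.0 TPM. Clec4f followed with 138 ± 37.1, Fcna with 124 ± 21.4 and Vsig4 with 98.0 ± 20.1 TPM, and the SD ranges of neighbours among these 3 overlapped. Csf1r (47.8 ± 7.68 TPM) and Adgre1 (40.6 ± 7.38 TPM) did not differ beyond their SD either. Marco (23.0 ± 15.3 TPM), Cd163 (8.43 ± 1.98 TPM) and Timd4 (8.18 ± 1.23 TPM) were lowest, and the SD range of Marco overlapped with those of both Adgre1 and Cd163, as those of Cd163 and Timd4 did. In Mcl1 KO livers Marco, at 95.7 ± 26.6 TPM, stood next to Vsig4 (106 ± 38.8 TPM), above Adgre1 (60.6 ± 19.8 TPM) and Csf1r (45.4 ± 21.0 TPM), while Cd163 was the lowest of all at 1.92 ± 0.0342 TPM. The 9 genes together reached 610 to 931 TPM in WT, 756 to 1056 in Sting1 KO, 888 to 1373 in Mcl1 KO and 1070 to 1265 in DKO livers. TPM did not have the scaling between libraries that CPM had, so levels compared between genotypes can depend on the scale. Clec4f, for example, was at 169 TPM and 204 CPM in Mcl1 KO replicate 2, and at 207 TPM and 185 CPM in Mcl1 KO replicate 1. Cd5l made up 36.0% ± 1.06 of the summed TPM of the 9 genes in WT and 40.7% ± 1.67 in Mcl1 KO livers. Cd163 made up 1.12% ± 0.219 in WT and 0.190% ± 0.0429 in Mcl1 KO livers.

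**Figure D1:**
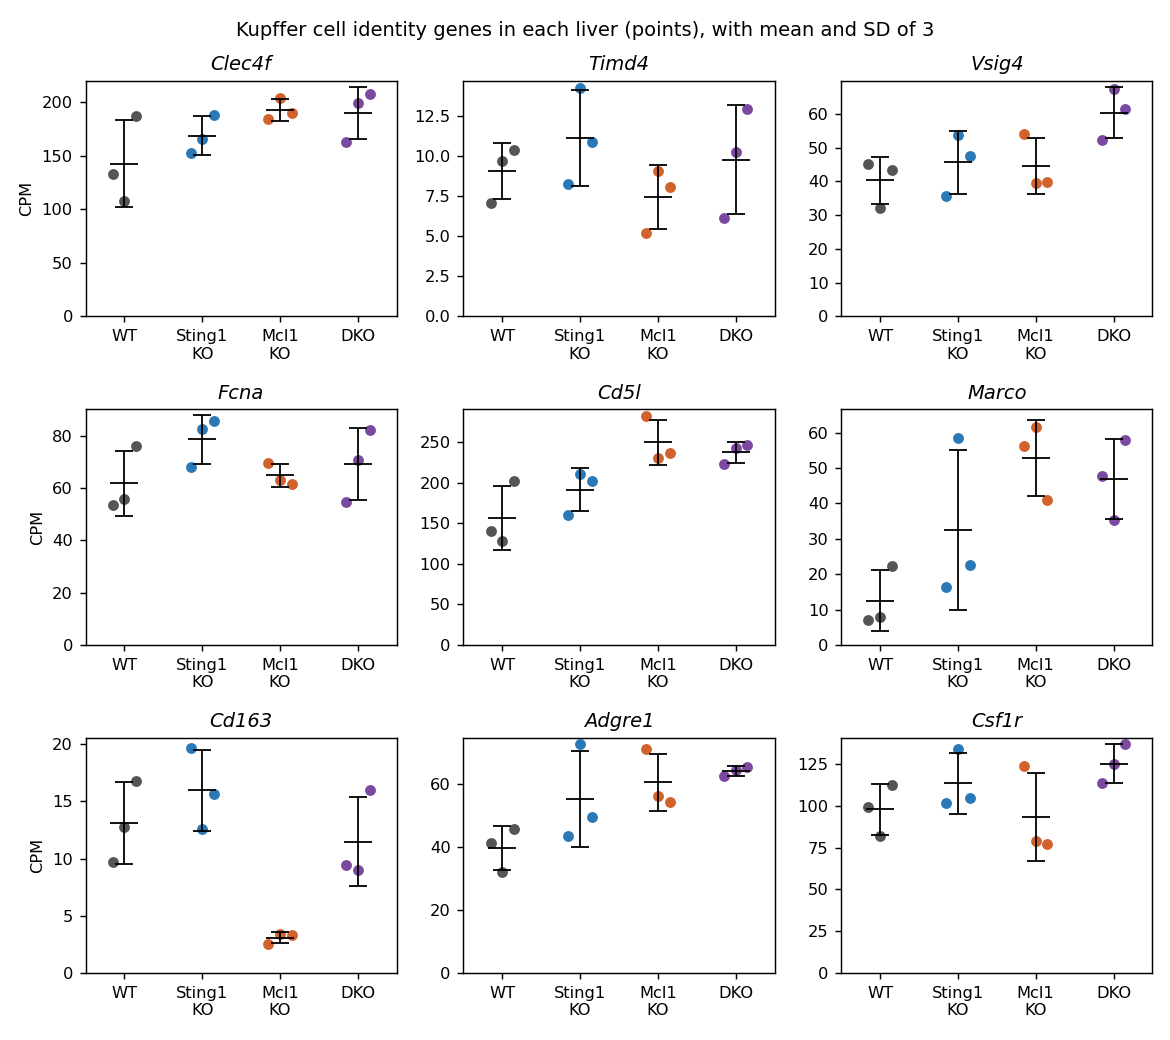
CPM of each of the 9 genes (vertical axes from 0, each panel on its own scale) in the 12 livers, grouped by genotype, with points for livers and black bars for the mean and SD of 3. Cd163 in the 3 Mcl1 KO livers lies between 2.58 and 3.39 CPM, below all 9 other livers, and Marco in the Mcl1 KO and DKO livers lies between 35.3 and 61.5 CPM, above all 3 WT livers.

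Mcl1 KO livers differed from WT livers in 4 of the 9 genes. Marco, Cd5l and Adgre1 were higher and Cd163 was lower, each without overlap between the 3 livers of one genotype and the 3 of the other. Of the 15070 genes tested, 20.2% were called at an adjusted p under 0.05, 10.8% higher and 9.43% lower, and 33.3% did not overlap between the genotypes, so 4 of 9 lies above the 20.2% of all genes, and no test of that difference was made because the genes were chosen with earlier results known. The median log2 fold change was 0.14 over the 9 genes and -0.0049 over all genes tested. Unless DESeq2 is named, adjusted p-values are from edgeR's quasi-likelihood test with Benjamini-Hochberg adjustment over all genes tested. They weigh each difference against the spread between livers of the same genotype, estimated over all 4 genotypes together. The labels give no litter or batch for these livers.

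Marco and Cd163 are both scavenger receptors, and they moved in opposite directions, which was known when they were chosen. Marco (ENSMUSG00000026390, chr1:120402267-120432753, minus strand) encodes a class A receptor that binds bacteria and particles. It was at 7.06, 7.91 and 22.4 CPM in the WT livers and at 56.2, 61.5 and 40.9 CPM in the Mcl1 KO livers. WT replicate 3 stood above the other WT livers, and every Mcl1 KO liver lay above it. The difference was a log2 fold change of 2.08 ± 0.509 (SE, here and below), or 4.24-fold, with an adjusted p of 0.0169. That call was lost without WT replicate 2 (1.84, adjusted p = 0.0716), without Mcl1 KO replicate 2 (1.96, adjusted p = 0.0567), and with the small structured RNA share as a covariate (1.84, adjusted p = 0.142). Cd163 (ENSMUSG00000008845, chr6:124281606-124307560, plus strand) encodes the receptor for complexes of haptoglobin and haemoglobin. It was at 9.72, 12.8 and 16.8 CPM in the WT livers and at 2.58, 3.39 and 3.38 CPM in the Mcl1 KO livers. All 3 Mcl1 KO livers were below the lowest WT liver, with 107 to 125 reads each. Its log2 fold change was -2.05 ± 0.276, a level of 0.241 times that of WT, with an adjusted p of 0.00146, and it was called in all 6 alternative analyses and in all 12 fits that left out a library. A long noncoding RNA, Gm56975, lies on the other strand within the locus of Cd163, and strand use in counting is not given in the sources used here.

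The bases just before the start sites of Marco and Cd163 are shown because the 2 scavenger receptors moved apart. Those of Timd4 and Vsig4 are shown because they alone, of the windows searched, held the ETS motif marked below. Neither gene was called, and nor were Clec4f and Fcna, whose windows held no match. Whether the motif goes with a change in RNA was not tested. The sequences are the 250 bases before the start of the canonical transcript in GRCm39, read on the strand of the gene from the genome with GENCODE vM39 starts. Capitals mark the ETS motif GGAAGT or its other strand ACTTCC, the family of Spi1 and Spic. Marco lies at chr1:120432754-120433003 (minus strand), Cd163 at chr6:124281356-124281605 (plus strand), Timd4 at chr11:46701370-46701619 (plus strand) and Vsig4 at chrX:95337045-95337294 (minus strand).
Marco: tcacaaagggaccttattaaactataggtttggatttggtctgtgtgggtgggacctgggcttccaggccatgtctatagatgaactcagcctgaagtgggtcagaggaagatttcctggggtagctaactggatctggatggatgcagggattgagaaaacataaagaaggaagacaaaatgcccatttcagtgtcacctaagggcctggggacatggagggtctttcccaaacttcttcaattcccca
Cd163: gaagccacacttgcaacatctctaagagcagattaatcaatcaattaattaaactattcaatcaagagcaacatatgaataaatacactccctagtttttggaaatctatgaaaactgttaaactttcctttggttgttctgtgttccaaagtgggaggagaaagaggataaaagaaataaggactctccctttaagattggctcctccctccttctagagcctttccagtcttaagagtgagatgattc
Timd4: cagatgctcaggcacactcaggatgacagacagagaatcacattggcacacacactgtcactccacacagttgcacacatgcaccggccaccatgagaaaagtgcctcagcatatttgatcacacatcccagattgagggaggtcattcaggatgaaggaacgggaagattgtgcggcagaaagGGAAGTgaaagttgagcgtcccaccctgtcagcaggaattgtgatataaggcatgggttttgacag
Vsig4: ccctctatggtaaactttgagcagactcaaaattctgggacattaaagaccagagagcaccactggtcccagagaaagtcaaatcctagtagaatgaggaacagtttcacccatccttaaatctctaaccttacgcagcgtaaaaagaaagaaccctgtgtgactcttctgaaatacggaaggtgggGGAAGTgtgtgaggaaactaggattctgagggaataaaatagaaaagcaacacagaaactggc

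The motif was present in 19.0% of the 21757 windows of protein-coding genes. Timd4 and Vsig4 each held 1 exact match, and Marco, Cd163, Clec4f, Cd5l, Fcna and Adgre1 held none. Other forms of the ETS motif were not searched, so a window without a match may still hold one. The window of Csf1r was not analysed here. The MAF half-site TGCTGA (other strand TCAGCA), in 14.8% of windows, had 3 matches before Fcna, 2 before Cd5l, 2 before Timd4 and 1 before Clec4f. The nuclear receptor half-site AGGTCA (other strand TGACCT), in 13.1% of windows, had 1 match before Timd4. Matches of this length are descriptions of the letters.

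The ratio of Marco to Cd163 counts put the pair on 1 scale within each liver. It was 0.726, 0.620 and 1.33 in WT, 0.837, 4.63 and 1.44 in Sting1 KO, 21.8, 18.1 and 12.1 in Mcl1 KO, and 5.07, 3.91 and 3.63 in DKO livers. Mcl1 KO livers had the 3 highest ratios, and DKO livers overlapped with Sting1 KO replicate 2 alone. The mean log2 ratio was 4.32 higher in Mcl1 KO than in WT livers and 1.23 higher in DKO than in Sting1 KO livers. When a library was left out, the first ranged from 4.10 to 4.65, while the second was 0.68 without Sting1 KO replicate 1 and 1.92 without Sting1 KO replicate 2. No test was made, since the pair was chosen for its opposite directions. Across the 12 livers the log2 levels of Marco and Cd163 had a Pearson correlation of -0.43 and a Spearman correlation of -0.42. The points include the genotypes, so these values describe the scatter and nothing more.

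**Figure D2:**
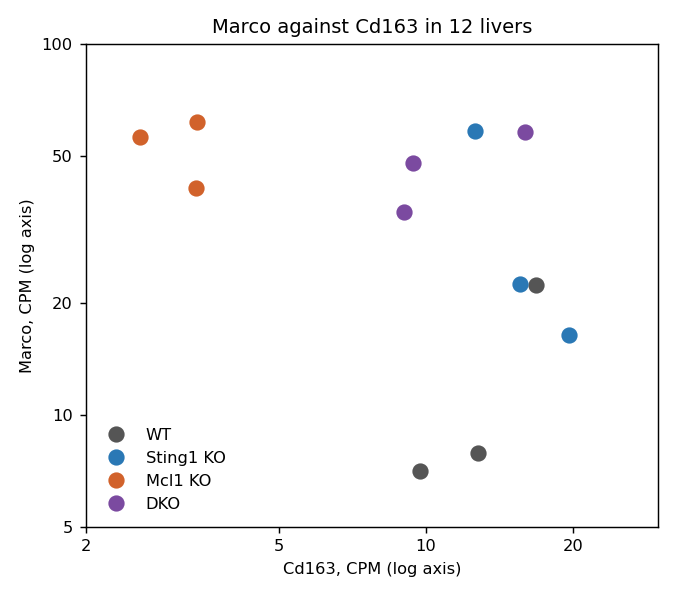
Marco (vertical) against Cd163 (horizontal) in CPM, both on log axes, with 1 point per liver coloured by genotype. The 3 Mcl1 KO livers lie apart at 2.58 to 3.39 CPM of Cd163, while DKO livers share their range of Marco but have 9.03 to 15.9 CPM of Cd163.

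The secreted proteins split. Cd5l (ENSMUSG00000015854, chr3:87265182-87278380, plus strand) encodes AIM, a protein of macrophages that binds lipids and debris and circulates with IgM. It was at 141, 128 and 202 CPM in WT and at 282, 231 and 237 CPM in Mcl1 KO livers. All Mcl1 KO livers were above the highest WT liver, and Cd5l rose by a log2 fold change of 0.67 ± 0.186 (adjusted p = 0.0273). The call was lost without WT replicate 1 (adjusted p = 0.0746), WT replicate 2 (0.54, adjusted p = 0.112) or Mcl1 KO replicate 2 (adjusted p = 0.055), and with either covariate (adjusted p = 0.0841 with Y-linked expression and 0.157 with the small structured RNA share). Fcna (ENSMUSG00000026938, chr2:25514671-25519013, minus strand), which encodes ficolin A, a lectin that starts the complement lectin pathway, was at 53.6, 55.8 and 76.1 CPM in WT and 69.6, 63.0 and 61.7 CPM in Mcl1 KO livers. The Mcl1 KO range lay within the WT range, and the log2 fold change was 0.07 ± 0.180, with an interval of 2 SE from -0.29 to 0.43. A noncoding RNA, Fcnaos, overlaps Fcna on the other strand.

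The lectin and uptake genes did not pass the test. Clec4f (ENSMUSG00000014542, chr6:83621524-83633169, minus strand), a galactose-binding lectin found in mouse Kupffer cells and in few other cells, was at 133, 108 and 187 CPM in WT and 185, 204 and 190 CPM in Mcl1 KO livers. WT replicate 3 overlapped with the Mcl1 KO livers, and the log2 fold change of 0.43 ± 0.192 had an adjusted p of 0.124. Without that liver it was 0.67 with an adjusted p of 0.0376. Timd4 (ENSMUSG00000055546, chr11:46701620-46735177, plus strand), which binds phosphatidylserine on dying cells, was at 7.09, 9.71 and 10.4 CPM in WT and 5.23, 9.04 and 8.05 CPM in Mcl1 KO livers. These overlapped, and the log2 fold change was -0.29 ± 0.296 (adjusted p = 0.511, 2 SE from -0.88 to 0.31). Vsig4 (ENSMUSG00000044206, chrX:95290807-95337044, minus strand), the complement receptor CRIg for C3b and iC3b, was at 45.3, 32.3 and 43.5 CPM in WT and 54.1, 39.5 and 39.9 CPM in Mcl1 KO livers. They overlapped as well, with a log2 fold change of 0.14 ± 0.195 (adjusted p = 0.63).

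Of the 2 genes shared with other macrophages, Adgre1 was called and Csf1r was not. Adgre1 (ENSMUSG00000004730, chr17:57665573-57790527, plus strand) encodes the surface marker F4/80. It was at 41.1, 32.2 and 45.8 CPM in WT and 70.9, 56.3 and 54.3 CPM in Mcl1 KO livers, with no overlap. Its log2 fold change was 0.61 ± 0.197 and its adjusted p of 0.048 lay just inside the threshold. It was called in 2 of the 12 fits that left out a library, with adjusted p from 0.0295 to 0.172 over the 12, and in 2 of the 6 alternative analyses. Csf1r (ENSMUSG00000024621) encodes the receptor for CSF1 and IL34 on which these cells depend. It was at 99.0, 81.9 and 112 CPM in WT and 124, 79.1 and 77.3 CPM in Mcl1 KO livers. Mcl1 KO replicate 1 was above every WT liver and the other two below every one, and the log2 fold change was -0.07 ± 0.202 (2 SE from -0.47 to 0.34). The genes Mir6983 and Hmgxb3 overlap the locus of Csf1r, Hmgxb3 on the other strand.

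**Figure D3:**
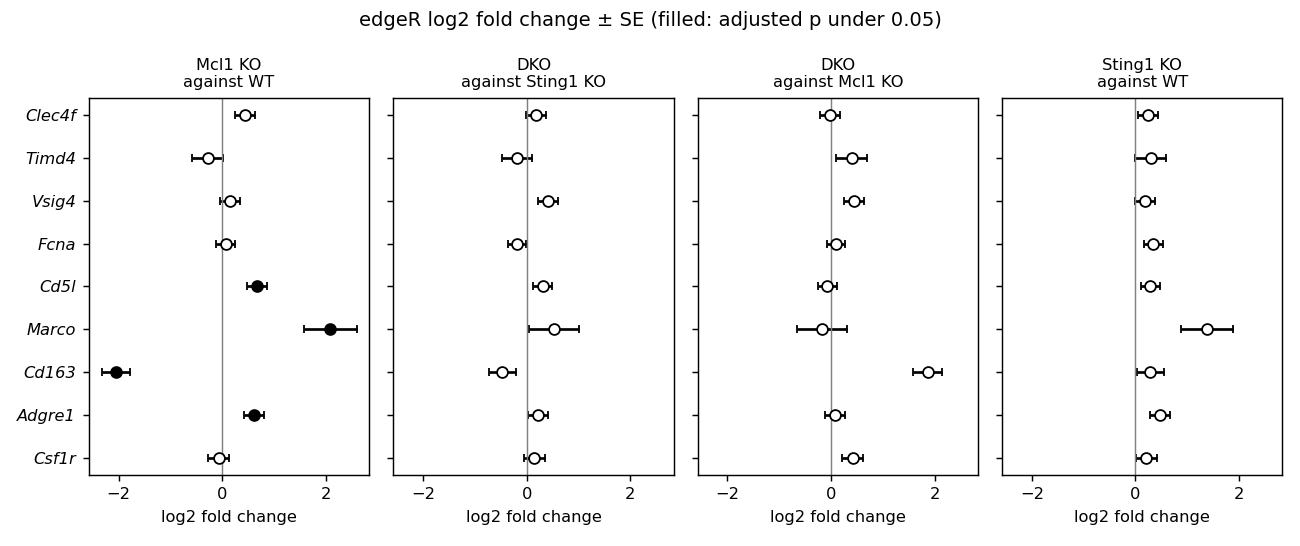
edgeR log2 fold change (horizontal) of the 9 genes in 4 comparisons, 1 per panel, with bars of 1 SE and filled points where the adjusted p was under 0.05. Only the panel of Mcl1 KO against WT has filled points, at 2.08 for Marco, 0.67 for Cd5l, 0.61 for Adgre1 and -2.05 for Cd163.

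In livers labelled Sting1 KO as background, loss of Mcl1 was followed by no call among the 9 genes, by edgeR's quasi-likelihood test at an adjusted p under 0.05, none at an unadjusted p under 0.05, and none by DESeq2. The comparison called 0.803% of all genes tested. Marco was at 16.4, 58.4 and 22.6 CPM in Sting1 KO and at 47.7, 35.3 and 57.8 CPM in DKO livers. Sting1 KO replicate 2 was above all 3 DKO livers, and the log2 fold change was 0.53 ± 0.488. Without that liver it was 1.26, and without Sting1 KO replicate 1 it was 0.21, neither of them called. Cd163 was at 19.6, 12.6 and 15.6 CPM in Sting1 KO and at 9.41, 9.03 and 15.9 CPM in DKO livers. DKO replicate 3 lay within the Sting1 KO range, and the log2 fold change was -0.47 ± 0.261 (adjusted p = 0.552). It was -0.30 without Sting1 KO replicate 1 and -0.77 without DKO replicate 3, again not called. Cd5l, at 161, 211 and 202 CPM in Sting1 KO and 223, 243 and 247 CPM in DKO livers, was the 1 gene of the 9 without overlap, against 22.3% of all genes tested. Its log2 fold change was 0.31 ± 0.185 (adjusted p = 0.597). Adgre1 had 43.5, 72.5 and 49.6 CPM in Sting1 KO and 62.3, 64.5 and 65.2 CPM in DKO livers, which overlapped (0.21 ± 0.196).

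Whether the effect of Mcl1 loss differed between Sting1 backgrounds was tested directly, as the log2 fold change of DKO against Sting1 KO minus that of Mcl1 KO against WT. edgeR's quasi-likelihood test called 0.0% of all genes, with 2164 at an unadjusted p under 0.05, and DESeq2 called 170. Cd163 differed by 1.58 ± 0.374 (adjusted p = 0.233 by edgeR), with DESeq2 giving 1.60 and an adjusted p of 0.0157. Without Mcl1 KO replicate 1, edgeR gave 1.46 and an adjusted p of 0.0456, in a fit that called 1574 genes in place of 0. Marco differed by -1.55 ± 0.694 (adjusted p = 0.341 by edgeR), and by -0.82 without Sting1 KO replicate 2. Both were under an unadjusted p of 0.05. The other 7 genes had differences from -0.39 to 0.26 and were not.

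DKO livers were also set against Mcl1 KO livers. edgeR's quasi-likelihood test called 0.0% of all genes, with 3098 at an unadjusted p under 0.05, and DESeq2 called 681, of which Cd163 was the 1 gene among the 9. Cd163 rose from 2.58 to 3.39 CPM in Mcl1 KO livers to 9.03 to 15.9 CPM in the libraries labelled DKO. It was the 1 gene of the 9 without overlap, against 18.2% of all genes tested. Its log2 fold change was 1.87 ± 0.274, or 3.64-fold (adjusted p = 0.131 by edgeR, 2.02e-06 by DESeq2). Without Mcl1 KO replicate 1 the log2 fold change was 1.75 and the adjusted p 0.0058 by edgeR, in a fit that called 3108 genes in place of 0. Marco, at 35.3 to 57.8 CPM in DKO livers, overlapped with Mcl1 KO (-0.17 ± 0.486), and so did Cd5l (-0.07 ± 0.185) and Adgre1 (0.08 ± 0.196). Vsig4 was at 52.4, 67.3 and 61.6 CPM in DKO livers, and 1 Mcl1 KO liver, at 54.1 CPM, lay within that range (0.44 ± 0.195, adjusted p = 0.231). Csf1r was at 113, 125 and 137 CPM in DKO livers (0.42 ± 0.203, adjusted p = 0.258). Without Mcl1 KO replicate 1, Csf1r differed by 0.68 with an adjusted p of 0.0195 by edgeR, in that same fit with 3108 genes called.

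Sting1 KO against WT gave 0.0% of all genes called, with 821 at an unadjusted p under 0.05, and 51 called by DESeq2, none of them among the 9. All 9 log2 fold changes were above 0, with a median of 0.29 against 0.0032 over all genes tested, but Timd4 was at -0.041 with the small structured RNA share and Vsig4 at -0.0028 with Y-linked expression as a covariate. The ranges of the 2 genotypes overlapped for all 9 genes, while 12.5% of all genes did not overlap. Marco had the largest of the 9, 1.38 ± 0.499 (adjusted p = 0.813 by edgeR), and it was 0.65 without Sting1 KO replicate 2 and 2.11 without WT replicate 3. Adgre1 differed by 0.47 ± 0.196 (adjusted p = 0.858 by edgeR), or 0.23 without Sting1 KO replicate 2, and Cd163 by 0.29 ± 0.261. The comparisons share libraries (WT, Mcl1 KO, Sting1 KO and DKO livers each enter more than 1), so their values are not independent of each other.

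Other genes of liver macrophages and of the cells around them were counted beside the 9 in Mcl1 KO against WT livers, where 10.8% of all genes tested were higher and 9.43% lower. Among 10 other Kupffer-enriched genes, 4 were higher and none lower, with a median log2 fold change of 0.38. They were Hmox1, the haem-degrading enzyme (2.17 ± 0.222), Slc11a1, a metal transporter of phagosomes (1.32 ± 0.170), Clec1b, the CLEC-2 receptor (0.77 ± 0.157) and Il18bp, the inhibitor of IL-18 (0.53 ± 0.165). Among 12 transcription factors of Kupffer cells, 4 were higher and 1 lower, with a median log2 fold change of 0.215. Of the 12, 6 had a value above 0, and Nr1h3 and Id3 were not called. The 12 summed to 523 to 586 TPM in WT and 409 to 628 TPM in Mcl1 KO livers, which overlapped. The higher ones were Spi1, the macrophage factor PU.1 (1.03 ± 0.183), Irf8 (1.15 ± 0.138), Spic, tied to iron-recycling macrophages (1.72 ± 0.339), and Id1 (1.88 ± 0.392). The lower one, named after its value was seen, was Rxra (-0.87 ± 0.186), the partner of LXRα, which hepatocytes also express. Among 13 niche ligands and receptors, Acvrl1, a receptor for BMP9 and BMP10 (1.07 ± 0.186), and Tgfb1 (0.73 ± 0.183) were higher and none was lower, a share near that of all genes. Of 13 ligands and partners of the 9 proteins, the efferocytosis receptor Axl was higher (0.83 ± 0.149), and the serine proteases that work with ficolins, Masp2 (-0.71 ± 0.144) and Masp1 (-0.59 ± 0.162), were lower, and these 3 of 13 are again near the 20.2% of all genes called. No gene of these 4 lists was called by edgeR in the 4 other comparisons. Those called 0.803% of all genes tested in DKO against Sting1 KO and 0.0% in the others, so this absence is not particular to the lists. DESeq2 calls were not counted for these lists. Some genes stand in more than 1 list.

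Lists of other macrophages and leukocytes were counted in the same livers, again beside the 10.8% of all genes tested that were higher and 9.43% lower. Among 12 genes shared by macrophages and leukocytes, 11 were higher in Mcl1 KO than WT livers and none lower (median 0.97), including Tyrobp (1.56 ± 0.224), an adaptor of activating receptors, and Cd68 (1.24 ± 0.223). Their summed level was 485 to 755 TPM in WT, 542 to 725 in Sting1 KO, 1049 to 1350 in Mcl1 KO and 889 to 1003 in DKO livers, and none of the 12 was at 0. Of 10 genes of recruited monocytes, 7 were higher (median 1.74), among them the chemokine receptor Ccr2 (1.91 ± 0.367). Their summed level was 13.4 to 22.3 TPM in WT, 16.3 to 21.4 in Sting1 KO, 40.6 to 78.7 in Mcl1 KO and 24.8 to 31.0 in DKO livers. Of 10 genes of lipid-associated macrophages, 8 were higher (median 2.70), including Trem2 (3.57 ± 0.476), a lipid-sensing receptor, and Gpnmb (5.10 ± 0.645). Their summed level was 113 to 183 TPM in WT, 101 to 173 in Sting1 KO, 303 to 381 in Mcl1 KO and 195 to 216 in DKO livers. In DKO against Sting1 KO livers 3 of these 10 were higher (Gpnmb, 4.98 ± 0.684, Trem2, 3.45 ± 0.490, and Mmp12, 6.10 ± 0.912), where 0.803% of all genes tested were called. In Sting1 KO livers Gpnmb averaged 0.197, Trem2 0.315 and Mmp12 0.1745 CPM, so the sizes of these changes are uncertain. In WT livers Gpnmb averaged 0.703 and Trem2 0.755 CPM. Such genes can pass the filter on low counts through the genotypes where they are high, so the shares called may be partly set by it. The part that other macrophages and leukocytes had in the levels of the 9 genes was not tested.

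**Figure D4:**
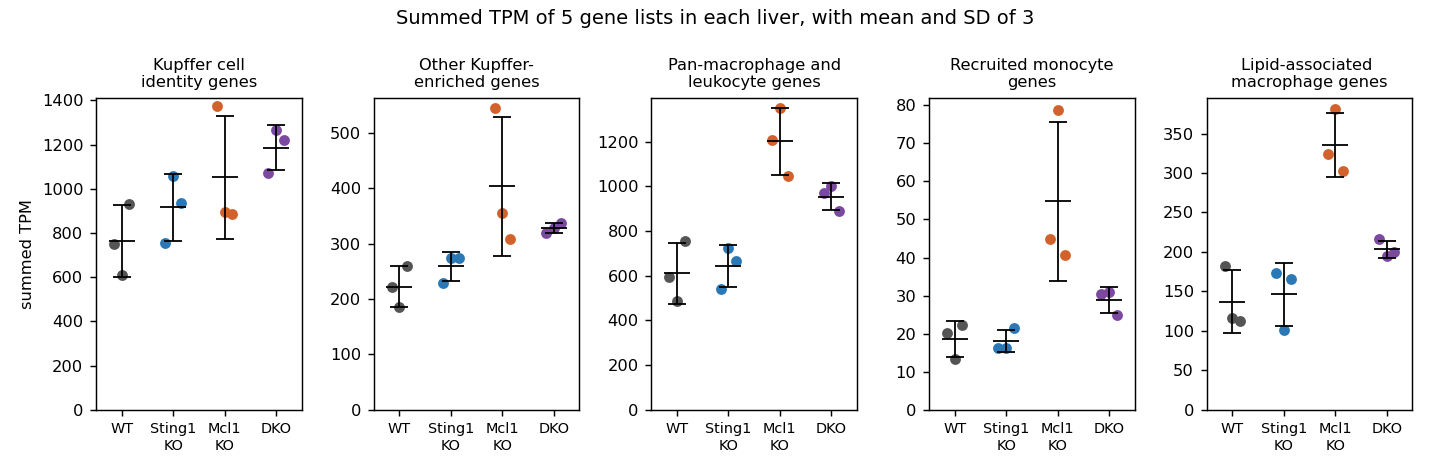
Summed TPM (vertical axes from 0, each panel on its own scale) of 5 gene lists in the 12 livers, with points for livers and bars for the mean and SD of 3. Mcl1 KO livers lie above all WT livers in the lists other than the 9 Kupffer cell identity genes, whose sum is 888 to 1373 TPM in Mcl1 KO and 610 to 931 TPM in WT livers. For those 9, Mcl1 KO replicates 2 and 3 (895.5 and 888 TPM) lie within the WT range. TPM did not have the scaling between libraries that CPM had, so such an overlap can depend on the scale.

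In Mcl1 KO against WT livers, 20.2% of all genes tested were called, 10.8% higher and 9.43% lower. Of the neutrophil genes, 5 of the 7 listed were tested and all 5 were higher in Mcl1 KO livers (median 1.56). The 7 had sums of 7.16 to 9.89 TPM in WT and 22.9 to 53.4 in Mcl1 KO livers. The filter on low counts can keep a gene through the 1 genotype where it is high. Cxcr2 averaged 0.182 CPM in WT, 0.181 in Sting1 KO, 0.255 in DKO and 0.6175 in Mcl1 KO livers, so 5 of 5 may be partly set by the filter. Dendritic cell genes had 2 of 7 higher (Cd209a and Clec9a), T, NK and B cell genes 2 of 9 (Klrb1c and Cd8a), and hepatic stellate genes 4 of 9, with Col1a1, a collagen of scar tissue, at 1.99 ± 0.428. The 2 of 9 are near the 20.2% of all genes called. In that T, NK and B cell list 6 of 9 values were above 0, and its sums overlapped, at 7.92 to 11.45 TPM in WT and 11.28 to 13.57 in Mcl1 KO livers. Sinusoidal endothelial genes had none called of 10 (median -0.20) and cholangiocyte genes none of 5, while hepatocyte genes had 2 of 7 lower, Serpina1c (-1.09 ± 0.189) and Cyp2e1 (-1.68 ± 0.404). Of lists for macrophages of other places, the peritoneal one had 1 of 5 higher (Selp), near the 20.2% of all genes called, and the splenic one 4 of 5. The splenic list holds Cd5l and Spic, and its others called were Vcam1 (2.19 ± 0.266) and Treml4 (0.90 ± 0.217). Vcam1 was also higher in DKO than in Sting1 KO livers (1.42 ± 0.260).

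The genes whose pattern over the 12 livers was most like Marco, Cd163 and Clec4f were taken from 12556 tested genes with a mean of at least 1 CPM, by Pearson correlation of log2(CPM + 1). For Marco they were Treml4 (0.97), Csf3r (0.92), Cd5l (0.92), Pcolce2 (0.92) and Pik3cd (0.91). For Cd163 they were Snrnp48 (0.92), Atg4b (0.92), Araf (0.92), Naa60 (0.92) and Nudt12 (0.92). For Clec4f they were Gbp5 (0.95), Hk3 (0.93), Fgd2 (0.93), Pld4 (0.92) and Aif1 (0.91). Among the 9 genes, Marco was closest to Cd5l (0.92) and Adgre1 (0.91), and Cd5l also to Adgre1 (0.89) and Clec4f (0.89). Vsig4 and Csf1r had a correlation of 0.82. Timd4 correlated most with Fcna (0.66) and Cd163 (0.56). These are descriptions over 12 livers that share their genotypes and depth.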

How the data were processed

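Total RNA was taken from mouse liver with an RNeasy kit (Plus Mini per the labels, Micro per the paper's methods) and sequenced on an Illumina NovaSeq. The authors deposited raw read counts per Ensembl gene, without normalization. STAR, featureCounts and GRCm39 are named in the submitters' processing notes; versions, annotation and strand use are not given in the sources used here. From these, TMM-scaled CPM and tests of log2 fold change were obtained in edgeR 4.0.16 (filterByExpr by genotype, glmQLFit, glmQLFTest, prior count of 2) in R 4.3.3 over all 12 libraries without covariates, with Benjamini-Hochberg adjustment over 15070 genes and a threshold of 0.05. The fit was tested on simulated data, where 193 tested genes were changed by a log2 fold change of 2 in either direction. edgeR recovered 163 of them with 10 false calls, and DESeq2 recovered 177 with 32 false calls. The more frequent false calls of DESeq2 bear on genes called by DESeq2 alone in the full set of libraries. The simulated livers differed by genotype alone, so the simulation does not cover effects of sex, small structured RNA share or a deviating library. TPM used exon lengths of GENCODE vM39, found for 39533 of 40551 identifiers. Alternatives were DESeq2 1.42.0, RLE factors, no filter, a replicate block, Y-linked expression or small structured RNA share as a covariate, and leaving out each library. Genes were named by rule: all 9, up to 4 called genes of each list by p-value, and the 5 most alike for 3 genes. The 9 genes and all lists were chosen with earlier results of these data known. Intervals reflect counts of this depth and 3 livers a genotype.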

Additional observations from a re-analysis of the deposited data

How the results depend on the processing

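For Mcl1 KO against WT, genes called fell from 3050 to 1536 with Y-linked expression and to 417 with small structured RNA share as a covariate, and ranged from 1233 to 5232 in the fits that left out a library (5232 without Mcl1 KO replicate 1, 1233 without WT replicate 2, 1238 without Mcl1 KO replicate 2, 1596 without WT replicate 3). Of the 9 genes, 2 were called with the first covariate, 1 with the second, and 1 to 4 when a library was left out. Cd163 was called in every one of these fits. For DKO against Sting1 KO, genes called were 461 by DESeq2, 50 with Y-linked expression and 1 to 249 when a library was left out. For DKO against Mcl1 KO they were 681 by DESeq2, 2 with Y-linked expression and 0 to 3108 when a library was left out (3108 without Mcl1 KO replicate 1). Of the 9, 1 was called by DESeq2 and 0 to 2 when a library was left out. For Sting1 KO against WT they were 51 by DESeq2 and 0 to 22, and for the difference of effects 170 by DESeq2 and 0 to 1574, with 1 of the 9 by DESeq2 and 0 to 1. The 1574 also came without Mcl1 KO replicate 1. The cause of these shifts was not tested. Replicate numbers did not pair the livers (correlations of same-numbered livers from -0.11 to 0.35), although in DKO against Sting1 KO each liver correlated best with its own number (0.069, 0.35 and 0.24), a hint from the data and not the design. The block gave 129 genes called there in place of 121. The replicate block ended 1 call among the 9, Adgre1 (0.61, adjusted p = 0.078), and no other.

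Some log2 fold changes that had not been called changed sign. With Y-linked expression these were Vsig4 (-0.037) and Fcna (-0.0012) in Mcl1 KO against WT, Clec4f (0.0047) in DKO against Mcl1 KO and Vsig4 (-0.0028) in Sting1 KO against WT. With small structured RNA share they were Csf1r (0.24) in Mcl1 KO against WT, Clec4f (0.090) in DKO against Mcl1 KO, Timd4 (-0.041) in Sting1 KO against WT, and Clec4f (0.0072) and Csf1r (-0.16) in the difference of effects. When a library was left out, Vsig4 ranged from -0.026 to 0.23, Fcna from -0.029 to 0.24 and Csf1r from -0.33 to 0.052 in Mcl1 KO against WT. Timd4 ranged from -0.41 to 0.058 in DKO against Sting1 KO and from -0.14 to 0.35 in the difference of effects. In DKO against Mcl1 KO, Clec4f ranged from -0.085 to 0.085, Cd5l from -0.13 to 0.029, Marco from -0.34 to 0.0019 and Fcna from -0.044 to 0.24.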
